A study of Homo sapiens with 16 samples.

Results

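CREB1, ATF1 and CREM are the 3 transcription factors of the CREB family, CRTC1, CRTC2 and CRTC3 are the coactivators that bind them, and CREBBP and EP300 encode the acetyltransferases CBP and p300. These 8 genes, of the 26410 genes listed in both deposited tables, are described here. They were found by matching the Ensembl gene identifier of each row to its symbol, and each had 1 row. The rule uses gene names and no measured value.

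CREB-family factors carry a basic leucine zipper (bZIP), pair with one another and bind the cAMP response element (CRE) in promoters. When protein kinase A or a calcium-dependent kinase phosphorylates the factor, CBP or p300 is recruited and acetylates nearby histones. CRTC proteins wait phosphorylated in the cytoplasm, are released by the calcium-dependent phosphatase calcineurin, and join the factor in the nucleus without need of that phosphorylation. In neurons and in neuroblastoma cells the pathway is known for linking calcium entry to transcription, and much of its control acts on the proteins, which mRNA levels do not show.

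SH-SY5Y cells are an established human line grown from a neuroblastoma. Their RNA was sequenced in 16 libraries in 4 groups of 4, made from 4 single-cell clones with 2 replicates of each clone and treatment. TRPM2 is a calcium-permeable channel of the plasma membrane, and TRPM2 KO clones KO11 and KO28 came from cells given Cas9 with a guide to TRPM2, whose target was gaggaaagctggctcggagc. Control clones Scr13 and Scr16 came from cells given a scrambled guide. Both kinds received the same donor vector with GFP and puromycin markers and were kept under puromycin, so these are shared by all 4 groups. Cells were untreated or given 0.3 µM doxorubicin, an anthracycline that poisons topoisomerase II, for 24 h. The series' own design text gives 3 µM instead. Each genotype is represented by only 2 clones, so p-values over 4 libraries measure the spread among libraries of those clones.

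Reads counted on genes ran from 10481177 to 25086085 per library, with a median of 16037366.5. Levels are normalized CPM, meaning the reads on a gene scaled to a common library size, with a normalization factor for each library. Of the 8 genes, the one with fewest reads was CREM, with 127 to 279 reads in a library, and the one with most was CREBBP, with 2238 to 5535 reads. All 8 passed the filter on low values, 1 CPM in at least 4 libraries, in every comparison.

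TRPM2 itself (ENSG00000142185; chromosome 21 of GRCh38, 44350163 to 44443081) was counted first, as a look at the labels. Untreated libraries labelled TRPM2 KO held 35 and 37 reads in KO11 and 21 and 30 reads in KO28. The Scr13 libraries held 3 and 2 reads and the Scr16 libraries 0 and 0, which allows up to 0.184 and 0.17 normalized CPM at 3 reads. The untreated groups did not overlap, and TRPM2 reads were higher in the libraries labelled KO, with a fitted change of 1.47 ± 0.27 on the log2 scale (± standard error; adjusted p = 0.00154), which is against the label. After doxorubicin the KO libraries held 11 to 29 reads and the Scr libraries 1 to 14 reads. These groups overlapped, and the log2 change, 0.69 ± 0.33 (± standard error; adjusted p = 0.249), was not called. An antisense gene, TRPM2-AS, overlaps TRPM2 on the opposite strand, and how counting used strand is not given in the sources used here. The deletion described for these clones takes out the DNA for the start of the protein, and a count for the whole gene does not show where in the gene the reads lie, so it does not check the deletion.

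Most markers of the labelled cell type were high in all libraries. Over 11 adrenergic neuroblastoma markers the summed level was 7484 to 8828 normalized CPM, with DBH, STMN2 or HAND2 the most abundant. TH, a defining marker of noradrenergic cells, was at 0 in 6 of 16 libraries and at most 1.13 normalized CPM, and CHGA ran from 0.356 to 26.4. Most mesenchymal or fibroblast markers were higher in the libraries labelled KO. Their sum over 11 genes was 856 to 1155 normalized CPM in untreated libraries labelled KO and 428 to 897 in untreated Scr libraries, where Scr13 replicate 1 held the 897 and the others were at or below 589. After doxorubicin it was 891 to 1232 in the KO libraries and 448 to 741 in the Scr libraries, with no overlap. VIM was the most abundant of them in every KO library, and none was at 0 there. The mean of VIM was 369 in KO against 188 normalized CPM in Scr without treatment. TWIST1 went the other way, at 180 against 260 without treatment and 194.5 against 303.5 after doxorubicin. SNAI2 was at 12.5 against 13.4 without treatment. The part of this difference in the results below was not tested, and in bulk RNA fewer cells of a type and less RNA per cell cannot be told apart.

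The bZIP factors differed widely in level. CREB1 (ENSG00000118260), the factor the family is named for, lies on the plus strand of chromosome 2, 207529737 to 207603431, and had 103 ± 8.03 normalized CPM (SD, n = 16). ATF1 (ENSG00000123268), a close relative that pairs with CREB1, lies on the plus strand of chromosome 12, 50763710 to 50821122, and had 17.8 ± 2.5 (SD, n = 16). CREM (ENSG00000095794), whose transcripts encode both activators and repressors, lies on the plus strand of chromosome 10, 35126791 to 35212958, and had 12.4 ± 2.73 (SD, n = 16). A gene count does not separate the activating and repressing forms of CREM. METTL21A, a protein-coding gene, overlaps CREB1 on the opposite strand, a processed pseudogene of ATF1 named ATF1P1 is annotated elsewhere, and a further processed pseudogene lies on the same strand within CREM. How counting used strand is not given in the sources used here, so a few of these reads may be shared.

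The coactivators CRTC1, CRTC2 and CRTC3 had 59.3 ± 7, 84.2 ± 13 and 71 ± 6.54 normalized CPM (SD, n = 16). CRTC1 (ENSG00000105662), the form most tied to neurons, lies on the plus strand of chromosome 19, 18683677 to 18782333. CRTC2 (ENSG00000160741), the form best known from liver, lies on the minus strand of chromosome 1, 153947669 to 153958625, and no annotated gene overlaps either of them. CRTC3 (ENSG00000140577), on the plus strand of chromosome 15, 90529925 to 90645345, is overlapped by 4 antisense genes and a pseudogene. CREBBP (ENSG00000005339; minus strand of chromosome 16, 3725054 to 3880726) had 241 ± 27.4 normalized CPM and EP300 (ENSG00000100393; plus strand of chromosome 22, 41091786 to 41180079) had 122 ± 14.9 (SD, n = 16 each).

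Levels between genes were compared per kilobase of annotated exon, since a longer transcript collects more reads. On that scale the order was CRTC2 at 23.3 ± 3.61 normalized CPM per kilobase, CREBBP at 15.5 ± 1.77, CREB1 at 10.8 ± 0.839, EP300 at 9.78 ± 1.19, CRTC1 at 8.51 ± 1, CRTC3 at 6.57 ± 0.605, ATF1 at 6.39 ± 0.897 and CREM at 2.17 ± 0.48 (SD, n = 16 each). CRTC2 lay above CREBBP, CREBBP above CREB1, CRTC1 above CRTC3 and ATF1 above CREM in 16 of 16 libraries. CRTC3 and ATF1 did not differ beyond their spread, with CRTC3 higher in 9 of 16 libraries. CREB1 and EP300 differed by less than 1 SD, with CREB1 higher in 12 of 16 libraries. Among 14251 genes with a mean of at least 1 CPM, 86.6% had a lower mean level per kilobase than CRTC2 and 25.7% a lower one than CREM. For CRTC3 and ATF1 these shares were 53.5% and 52.7%, near the middle of expressed genes. CREM was in the lower part and the remaining members were in the upper part.

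**Figure D1:**
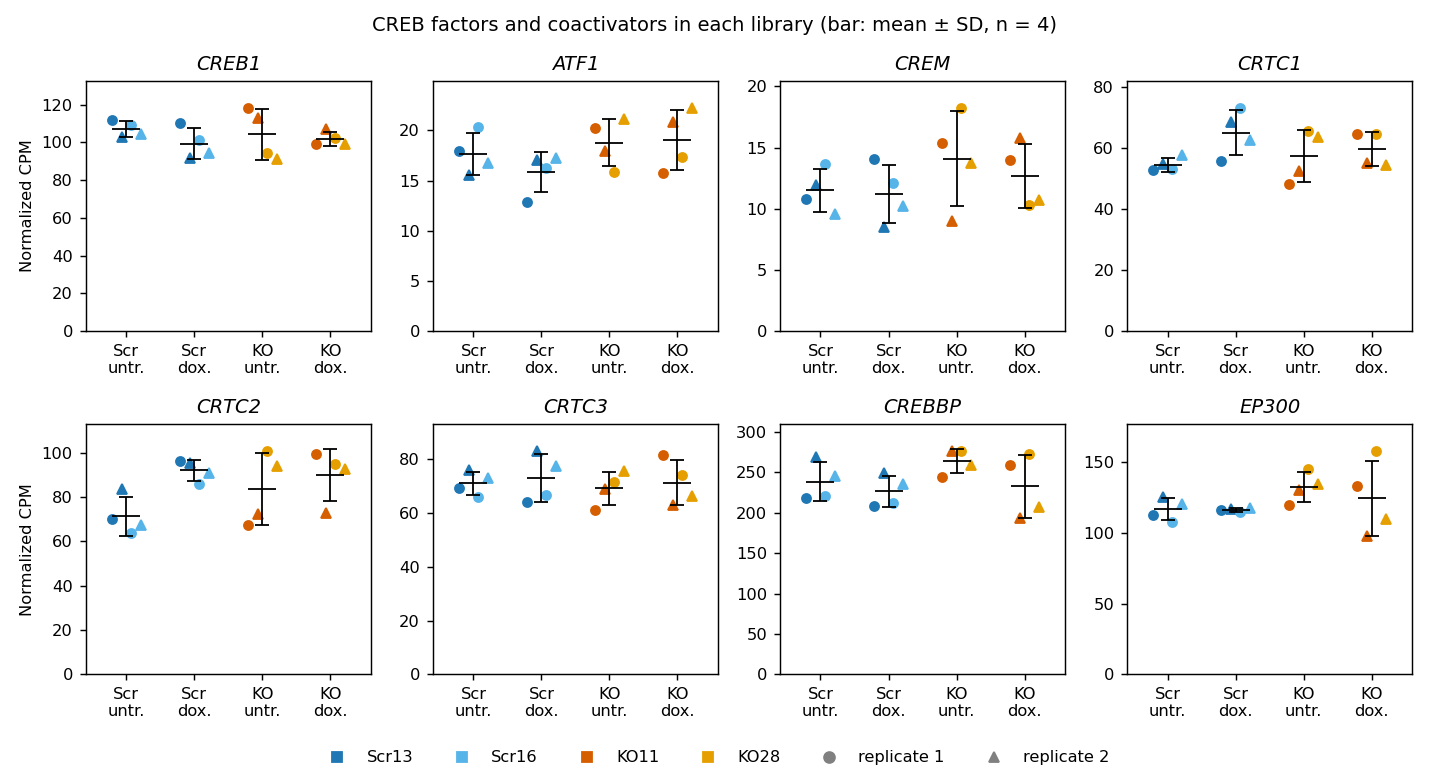
Normalized CPM (y axis, from 0) of each of the 8 genes in the 16 libraries, by group (x axis; untr., untreated; dox., doxorubicin), with clones by colour, replicates by symbol, and the group mean ± SD in black. CRTC2 separates the untreated Scr libraries, 63.8 to 83.8, from the doxorubicin-treated Scr libraries, 85.7 to 96.3, while these groups overlap for the other 7 genes.

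The first question was whether TRPM2 deletion goes with other mRNA levels of these genes in untreated cells. No member was called. At an adjusted p under 0.05, 695 of 14364 genes tested (4.84%) were called, 330 higher and 365 lower in the libraries labelled KO, the clones with more TRPM2 reads. Of the 8 members, 0 passed the adjusted threshold in limma, and 0 did in edgeR or DESeq2. EP300 alone had an unadjusted p under 0.05, and no member's groups were free of overlap, against 9.29% of all genes. The members' median log2 fold change was 0.12, beside -0.01 over all genes tested.

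EP300 had 119, 129.9, 145 and 134 normalized CPM in the untreated KO libraries and 112, 125, 108 and 120.2 in the untreated Scr libraries. The KO28 libraries were above all Scr libraries, and a KO11 library fell inside the Scr range. Its log2 fold change was 0.18 (95% interval 0.02 to 0.34, adjusted p = 0.279), with p = 0.0857 in a two-sided exact permutation test of 4 against 4 libraries, which cannot go below 0.0286. CREBBP stood at 264 ± 15.2 in KO and 239 ± 23.9 in Scr (SD, n = 4 each), and its 95% interval, -0.01 to 0.31 on the log2 scale, left room for a difference of up to 1.24-fold.

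CRTC2 showed the widest split between clones. Untreated KO11 libraries had 67.6 and 72.3 normalized CPM and untreated KO28 libraries had 101 and 94. Scr13 libraries had 69.9 and 83.8 and Scr16 libraries 63.8 and 67.4. Thus KO28 was above every other untreated library and KO11 was within the Scr range, and the genotype change was 0.22 ± 0.12 (log2, ± standard error; adjusted p = 0.433). With KO11 left out it was 0.45 (adjusted p = 0.0213), and with KO28 left out it was -0.02.

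CREB1 and CRTC1 split the same 2 KO clones in untreated cells. CREB1 had 118 and 113 normalized CPM in KO11 and 94.6 and 91.1 in KO28, with the Scr libraries between them at 103 to 112. KO11 was the higher clone and KO28 the lower one. CRTC1 had 48.3 and 52.5 in KO11 and 65.7 and 63.8 in KO28, with the Scr libraries at 52.8 to 57.8. Here KO28 was the higher clone. The fitted genotype changes were -0.05 for CREB1 (95% interval -0.23 to 0.14) and 0.06 for CRTC1 (-0.15 to 0.28). CREM ran from 9.04 to 18.2 in KO and from 9.6 to 13.7 in Scr, with a log2 fold change of 0.24 and a wide interval, -0.16 to 0.64. ATF1 and CRTC3 changed by 0.08 and -0.04, and their intervals, -0.21 to 0.38 and -0.22 to 0.14, also held 0.

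After doxorubicin the same question was asked of the treated libraries. No member was called here either: 1266 of 14572 genes tested (8.69%) passed, 659 higher and 607 lower in the libraries labelled KO, and 0 of the 8 members did in limma, edgeR or DESeq2. No member had an unadjusted p under 0.05, and 0 members had groups free of overlap, against 13.2% of all genes. The members' median log2 fold change was 0.03, beside 0.01 over all genes tested.

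CREBBP, the gene for CBP, had 259 and 193 normalized CPM in the treated KO11 libraries, 273 and 207 in KO28, 208 and 249 in Scr13 and 213 and 236 in Scr16. In each KO clone replicate 1 lay above the Scr range and replicate 2 below it. Replicates of a KO clone differed more than the group means did. The log2 fold change was 0.03 with a 95% interval of -0.17 to 0.23, that is 0.887-fold to 1.17-fold. EP300 had 133 and 97.7 in KO11, 158 and 109.6 in KO28, and 114 to 118 over the Scr libraries. In each KO clone replicate 1 lay above this narrow Scr range and replicate 2 below it. The log2 fold change of EP300 was 0.08 (-0.15 to 0.3).

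ATF1 had the largest fitted genotype difference after doxorubicin, with 19 ± 3.02 normalized CPM in KO and 15.9 ± 2.03 in Scr (SD, n = 4 each). The libraries ran from 15.7 to 22.2 in KO and from 12.9 to 17.3 in Scr. They overlapped, and the log2 change, 0.25 ± 0.16 (± standard error; adjusted p = 0.43), was not called. CREB1 had 102 ± 3.76 in KO and 99.4 ± 8.22 in Scr, with an interval of -0.13 to 0.21 on the log2 scale. CREM, CRTC1, CRTC2 and CRTC3 changed by 0.17, -0.12, -0.04 and -0.03, none with an adjusted p below 0.568.

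**Figure D2:**
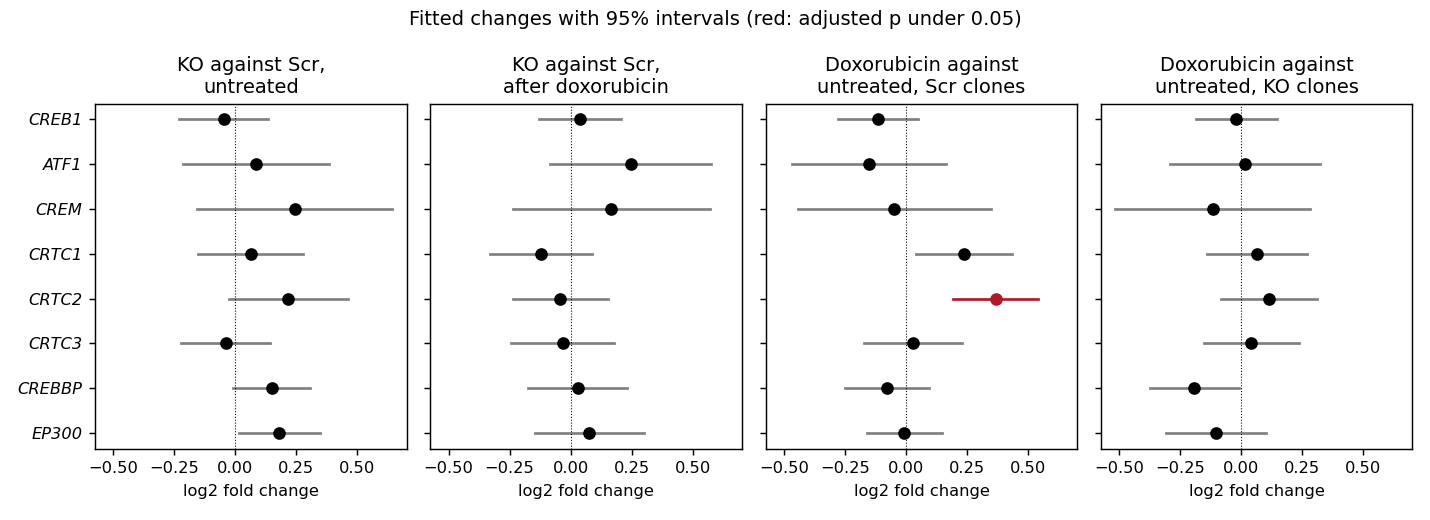
Log2 fold change (x axis) of each of the 8 genes (y axis) in 4 comparisons, with points for the limma estimate and lines for its 95% interval, red where the adjusted p is under 0.05. CRTC2 under doxorubicin in the Scr clones, 0.37 (0.19 to 0.54), is the only red point, and most other lines cross 0.

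The doxorubicin comparisons asked what 24 h of the drug did to these genes within each genotype. In the Scr clones CRTC2 rose and no other member was called. In all, 1748 of 14378 genes tested (12.2%) were called, 995 higher and 753 lower after doxorubicin. CRTC2 was 1 of 8 members called, a share of the members close to that background. It was also the 1 member whose groups did not overlap, against 17.2% of all genes. The members' median log2 fold change was -0.03, beside -0.01 over all genes tested.

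CRTC2 had 69.9 and 83.8 normalized CPM in untreated Scr13 and 63.8 and 67.4 in untreated Scr16. After doxorubicin it had 96.3 and 95.3 in Scr13 and 85.7 and 90.6 in Scr16. All 4 treated libraries were above all 4 untreated ones, and both clones rose. On the log2 scale the change was 0.37 ± 0.083 (± standard error; adjusted p = 0.00629), a 1.29-fold rise with a 95% interval of 1.14 to 1.46. Of the genes tested, 81.6% had a smaller change in either direction. The call held in edgeR and DESeq2 and with any library left out, and was lost with either clone alone, at 0.33 for Scr13 (adjusted p = 0.131) and 0.41 for Scr16 (adjusted p = 0.165).

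CRTC1 had 52.8 and 54.9 normalized CPM in untreated Scr13, 53.2 and 57.8 in untreated Scr16, 56 and 68.6 in treated Scr13 and 73.3 and 62.8 in treated Scr16. Treated libraries were higher on average, and 1 of them lay within the untreated range. The log2 fold change was 0.24 (95% interval 0.04 to 0.44, adjusted p = 0.109). CRTC1 also had the strongest relation to depth among the 8 genes, with Pearson's r of -0.67 between its level and the log2 read total over 16 libraries, against -0.37 for CRTC2 and 0.47 for CREB1. The part of depth in these changes was not tested. CRTC3, by contrast, had 71 ± 4.3 untreated and 72.8 ± 8.91 treated (SD, n = 4 each), a log2 fold change of 0.03 (-0.17 to 0.23).

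The factors and acetyltransferases of the Scr clones gave fitted changes at or below 0. CREB1 had 107 ± 4.22 normalized CPM untreated and 99.4 ± 8.22 treated (SD, n = 4 each), a log2 fold change of -0.11 (95% interval -0.28 to 0.05). ATF1 and CREM changed by -0.15 and -0.05, with intervals of -0.47 to 0.17 and -0.44 to 0.35. CREBBP changed by -0.08 (-0.25 to 0.09) and EP300 by -0.01 (-0.16 to 0.15), the interval of EP300 allowing at most 0.895-fold or 1.11-fold.

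In the clones labelled TRPM2 KO, doxorubicin gave more calls over all genes and none among the members. There 2847 of 14513 genes tested (19.6%) were called, 1656 higher and 1191 lower, and 0 of the 8 members were in limma, edgeR or DESeq2. One member, CREBBP, had an unadjusted p under 0.05, and 0 had groups free of overlap, against 19.7% of all genes. The members' median log2 fold change was 0, beside 0.02 over all genes tested.

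CREBBP had 245 and 276 normalized CPM in untreated KO11, 276 and 259 in untreated KO28, 259 and 193 in treated KO11 and 273 and 207 in treated KO28. In each clone treated replicate 2 was well below the untreated libraries and treated replicate 1 was among them. The log2 fold change was -0.19 (95% interval -0.38 to -0.01, adjusted p = 0.138). Leaving out the higher treated library of KO11 or of KO28 brought the adjusted p to 0.0408 or 0.0255. EP300 had treated replicate 1 above and treated replicate 2 below both untreated libraries in each clone, with a log2 fold change of -0.1 (-0.31 to 0.1).

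CRTC2 had 67.6 and 72.3 normalized CPM in untreated KO11 and 99.4 and 72.8 in treated KO11. In KO28 it had 101 and 94 untreated and 94.7 and 92.5 treated. The KO11 mean rose from 69.9 to 86.1, through 1 of its treated libraries, and the KO28 mean went from 97.4 to 93.6. Over both clones the log2 fold change was 0.12 (-0.08 to 0.31, adjusted p = 0.447). CRTC1 and CRTC3 changed by 0.06 and 0.04, CREB1 and ATF1 by -0.02 and 0.02, and CREM by -0.12 with an interval of -0.52 to 0.28.

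CREM means went down in KO28 and up in KO11, a difference that was not called. It had 15.4 and 9.04 normalized CPM in untreated KO11 and 14 and 15.7 in treated KO11, and 18.2 and 13.7 in untreated KO28 and 10.3 and 10.7 in treated KO28. Both treated KO28 libraries were below both untreated ones, whereas an untreated KO11 library lay among the treated ones. Fitted on KO11 alone the change was 0.31, and on KO28 alone it was -0.54, with neither called.

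The difference between the 2 drug responses was tested as an interaction over all 16 libraries. It was called for 5 of 15325 genes (0.0326%) and for 0 members in limma, edgeR or DESeq2, and no member had an unadjusted p under 0.05. CRTC2 had the largest interaction among the members, -0.25 (95% interval -0.52 to 0.02, adjusted p = 0.641), so its rise in the Scr clones was not shown to differ from its change in the KO clones. The other members' interactions ran from -0.18 for CRTC1 to 0.17 for ATF1.

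Because the KO clones differed in the untreated values, clones of 1 genotype were also compared with each other, in a fit added after these values had been seen. Untreated KO28 against KO11 gave log2 differences of 0.47 for CRTC2 (adjusted p = 0.141), 0.35 for CRTC1 (adjusted p = 0.272) and -0.32 for CREB1 (adjusted p = 0.224), each with an unadjusted p under 0.05. None was called, and over all genes 2 of 15325 (0.0131%) were. After doxorubicin the same contrast called 0 genes (0%) and no member. For Scr16 against Scr13 it called 1 gene (0.00653%) without and 1 (0.00653%) with doxorubicin, again no member, and the member with the lowest adjusted p was CRTC2 after doxorubicin, at 0.76. For the doxorubicin response of KO28 against KO11 it called 0 genes (0%), with CREM at -0.85 ± 0.39 (± standard error; adjusted p = 0.963). With 2 libraries a clone, differences of the sizes given here were not called.

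**Figure D3:**
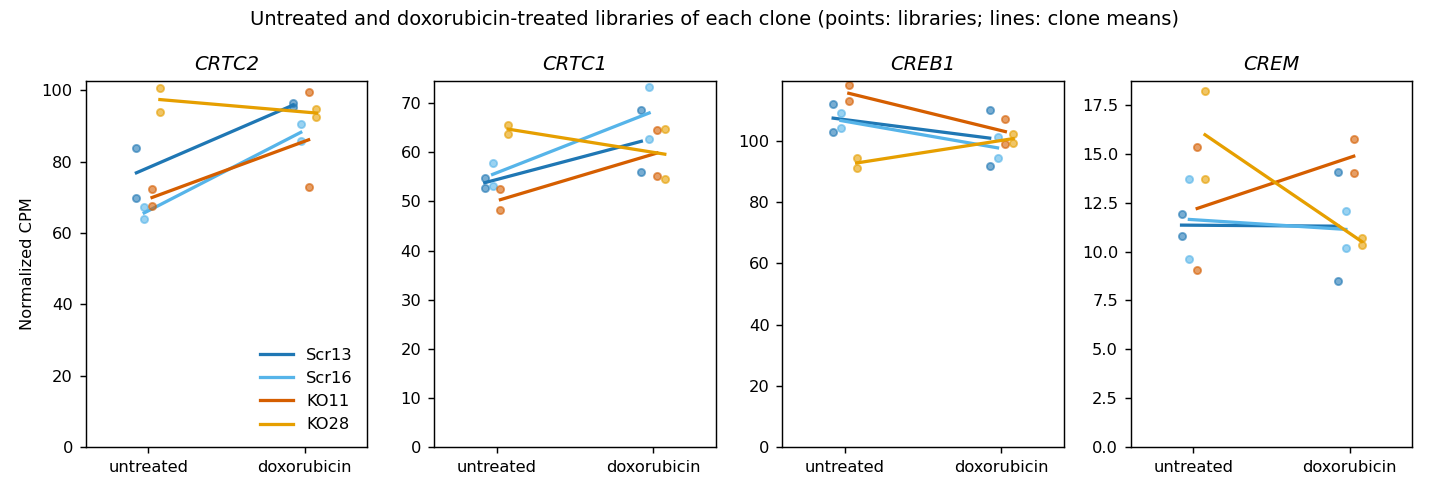
Normalized CPM (y axis, from 0) of CRTC2, CRTC1, CREB1 and CREM without and with doxorubicin (x axis), with points for libraries and lines joining the means of the 2 replicates of each clone. For CRTC2 the Scr13, Scr16 and KO11 lines rise, the KO11 mean from 69.9 to 86.1, while the KO28 line starts at 97.4 and ends at 93.6.

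How the members varied together over the 16 libraries is given here as a description, with clones and replicates shared between points. CREBBP and EP300 had the highest of the 28 pairwise correlations of log2(normalized CPM + 1), with Pearson's r of 0.86. The CRTC genes were positively related to each other, at 0.68 for CRTC1 and CRTC2, 0.59 for CRTC1 and CRTC3 and 0.52 for CRTC2 and CRTC3. Pairs of a CRTC gene with CREBBP or EP300 were positive too, from 0.2 for CRTC1 and CREBBP to 0.59 for CRTC3 and CREBBP. CRTC3 was thus as close to CREBBP as to CRTC1. CREB1 ran against all 3 CRTC genes, at -0.8 with CRTC1, -0.74 with CRTC2 and -0.7 with CRTC3. The level of CREB1 was related to the read total with the opposite sign to CRTC1 and CRTC2, and the part of depth in these correlations was not tested. CREM and ATF1 were close to unrelated to CREB1, at 0.1 and 0.05. In total 14 pairs were above 0 and 14 below, and the median was 0.01.

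**Figure D4:**
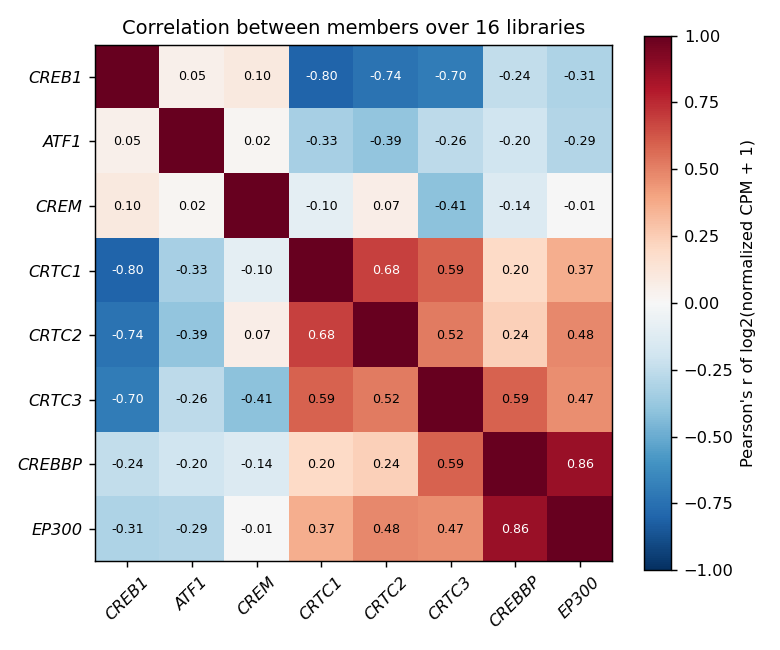
Pearson's r of log2(normalized CPM + 1) between each pair of the 8 genes over 16 libraries, from blue (-1) to red (1). The acetyltransferases form a red pair at 0.86 and the CRTC genes a red block, and pairs between the 2 sets are also above 0, up to 0.59. CREB1 is blue against all 3 CRTC genes.

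The genes whose pattern over the 16 libraries was nearest to a member were taken from 11489 genes with a mean of at least 5 CPM. CREBBP was nearest to ARID1A (r = 0.93), SRCAP and POGZ, and EP300 to SRRM2 (0.92), KMT2D and ARID1A (0.89). CRTC2 was nearest to ATN1 (0.92), GGA1 and RIPOR1, CRTC1 to ERF (0.94), CAPZB and C8orf82, and CRTC3 to ADGRB1 (0.84), ZMIZ1 and USP36. CREB1 was nearest to SC5D (0.93), MAN1A2 and RAB11A, while ATF1 and CREM had weaker neighbours, SLC39A6 (0.8), GHITM and CHUK for ATF1 and GPHN (0.8), FAM220A and PDCD10 for CREM. The SD on the log2 scale between replicates of a clone was above the SD over all 16 libraries for ATF1, CREM, CRTC3, CREBBP and EP300, at 0.3 and 0.29 for CREM and 0.19 and 0.17 for CREBBP. It was below it for CREB1, CRTC1 and CRTC2, at 0.14 and 0.23 for CRTC2.

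CREB-family factors bind the CRE, whose full form reads TGACGTCA on both strands. Its shorter form, TGACG or its reverse complement CGTCA, lies inside the full form. RefSeq promoter windows of GRCh38.p14, from 250 bases before to 50 after a transcript start, were searched for both. The full form was in 649 of 35097 windows (1.85%) and the shorter one in 8616 (24.5%). Of 16 windows for 7 members, 2 held the full form, both of them CREM windows with the same site, and 5 held the shorter one, in CREM, CRTC3 and CREBBP. The windows of CREB1, ATF1, CRTC1 and EP300 held neither, and CRTC2 had no entry. Among genes listed as CREB targets, 5 of 27 with an entry had the full form. They were CREM, VGF, CHGA, DUSP1 and SST, and SST was not analysed here. Windows of CREB3L2, PRKAR1A and other listed genes held the full form too. The first 4 are printed with the letters of the site in capitals, since they are listed targets with measured values, for CREM at chr10:35195841-35195870 (plus strand, first letter of the site 50 bases before a start inside the gene), VGF at chr7:101165630-101165659 (minus strand, 79 before), CHGA at chr14:92923085-92923114 (plus strand, 54 before) and DUSP1 at chr5:172771302-172771331 (minus strand, 125 before).
CREM: gagctgcacatTGACGTCAgctccgagtca
VGF: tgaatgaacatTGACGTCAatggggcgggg
CHGA: ggcggcaccgcTGACGTCAtttccggggtc
DUSP1: ggcagggcgggTGACGTCAccgccccgtca

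These 4 genes did not move together. VGF, a secreted neuronal peptide precursor, rose with doxorubicin in the Scr clones, from 959 ± 80.7 to 1387 ± 320.2 normalized CPM (SD, n = 4 each; log2 fold change 0.5, adjusted p = 0.00189), and in the KO clones, from 1291 ± 199 to 1729 ± 124 (0.43, adjusted p = 0.000585). Without Scr13 the first change was 0.23 (adjusted p = 0.295), and without KO11 the second was 0.28 (adjusted p = 0.238). Between untreated genotypes VGF was also called, higher in the libraries labelled KO. That call held in 8 of 8 fits with a library left out and was lost without KO28 or Scr16 (adjusted p up to 0.14). CHGA, a granule protein, fell in the KO clones (-1.36, adjusted p = 0.0308) from a group mean of 7.93 ± 12.4 that rested on a KO11 library at 26.4, and without that library the change was -0.55 (adjusted p = 0.303). DUSP1, a phosphatase of MAP kinases, had log2 fold changes of 0.21, 0.27, -0.04 and 0.02 in the 4 comparisons and was called in none of them.

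Of 36 genes listed as CREB targets, with CREM among them, 32 had a row. The list was drawn from general knowledge but with earlier results of these data known. Its shares beside all genes are therefore a description. In untreated cells 25 were tested, and 5 were higher and 3 lower in the libraries labelled KO, beside 4.84% of all genes called. CRH, the stress hormone corticotropin-releasing hormone, had the largest rise, from 5.11 ± 1.75 to 19.2 ± 4.22 normalized CPM (SD, n = 4 each; log2 fold change 1.76, adjusted p = 2.67e-05). EGR1 and ARC, immediate early genes, rose by 0.78 and 0.61. BDNF, a neurotrophin and a classic CREB target, had the largest fall, from 6.55 ± 1.66 to 2.27 ± 1.37 (-1.32, adjusted p = 0.0136), and BCL2 and IRS2 fell by 0.36 and 0.31 on the log2 scale. The list's median was 0.09, beside -0.01 over all genes. With a clone left out, CRH and SCG2, a secreted granule protein gene, were called each time. BDNF was lost without KO28, Scr13 or Scr16, and also without untreated Scr13 replicate 1 (adjusted p = 0.0557). EGR1 was lost without KO28, and ARC and BCL2 without KO28, Scr13 or Scr16. IRS2 was lost without KO11 or Scr13, and also without untreated Scr13 replicate 2 (adjusted p = 0.0585). The counts fell to 2 higher and 1 lower without KO28, 4 and 0 without Scr13 and 3 and 1 without Scr16. With reads summed per clone they were 5 and 1.

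After doxorubicin, 26 listed targets were tested and 5 were higher and 2 lower in the libraries labelled KO, beside 8.69%. CRH was again highest, at 18.5 ± 2.35 against 5.77 ± 2.39 normalized CPM (SD, n = 4 each; log2 fold change 1.61, adjusted p = 0.000119). ATF3, a stress-induced bZIP factor that is also listed among the bZIP relatives, rose by 1.08 and EGR1 by 0.92. The 2 that fell were BDNF, by 0.86 on the log2 scale, and IRS2, by 0.43. The median was 0.15, beside 0.01, and without KO28 the counts were 3 higher and 1 lower. BDNF was lost without KO28 or Scr16 and ATF3 without KO28, and CRH, EGR1 and IRS2 held with any clone left out. The treated KO and Scr libraries of this comparison also serve the comparisons of doxorubicin with no treatment.

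Doxorubicin moved more of the listed targets upward than downward. In the Scr clones 7 of 25 rose and 1 fell, beside 12.2% of all genes called, and the median was 0.12, beside -0.01. ARC rose most, from 14.3 ± 1.61 to 34.5 ± 4.74 normalized CPM (SD, n = 4 each; log2 fold change 1.21, adjusted p = 5.17e-06), followed by BDNF at 0.98 and EGR1 at 0.95. The call of BDNF was lost with either clone left out (adjusted p up to 0.13), and those of ARC and EGR1 held. PDE4B, a phosphodiesterase that breaks down cAMP and is also listed with the kinases, was the one that fell, by 0.33 on the log2 scale. In the KO clones 12 of 27 rose and 2 fell, beside 19.6%, with a median of 0.2, beside 0.02. BDNF rose by 1.44, EGR1 by 1.1 and FOS by 1.05, and CHGA and PDE4B fell. The call of FOS was lost without KO11 (0.93, adjusted p = 0.167), and those of BDNF and EGR1 held with either clone left out. The difference between these responses was called for 0 of 27 listed targets in limma, edgeR or DESeq2, with 3 at an unadjusted p under 0.05 in limma. Without Scr13 the counts in the Scr clones fell to 3 higher and 0 lower, and without KO11 those in the KO clones fell to 6 and 0.

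**Figure D5:**
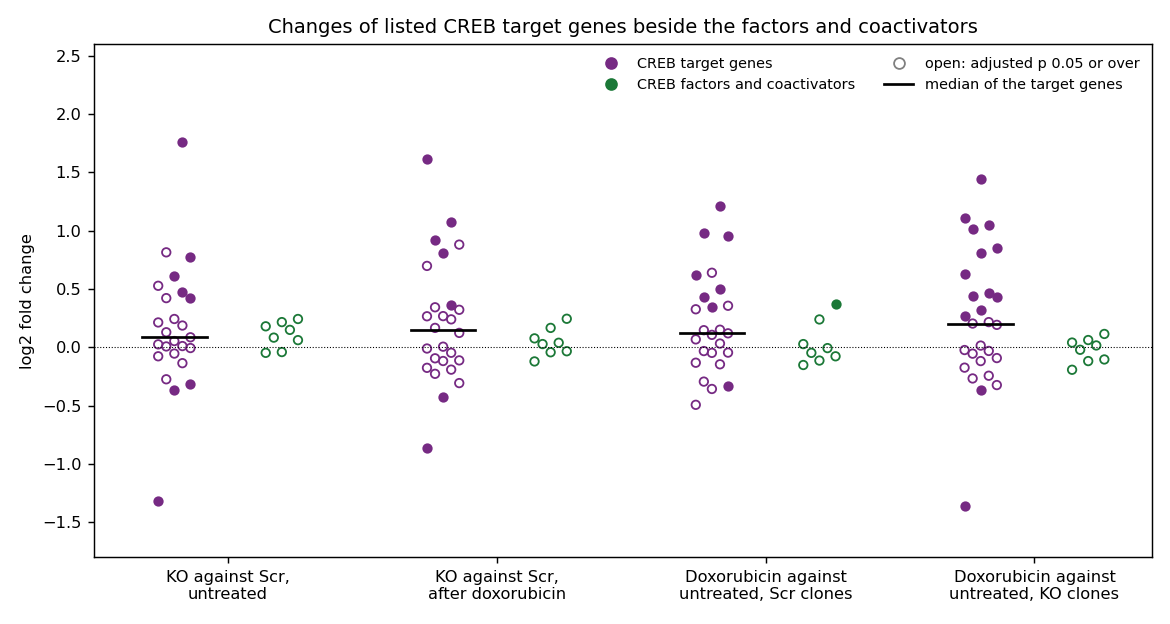
Log2 fold change (y axis) of the listed CREB target genes (purple) and of the 8 factors and coactivators (green) in 4 comparisons (x axis), filled where the adjusted p is under 0.05, with the median of the targets as a black line. The members lie between -0.19 and 0.37, while the targets reach from -1.36 to 1.76.

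Among the kinases, adenylyl cyclases and phosphodiesterases upstream of CREB, PDE4A and ADCY6 rose with doxorubicin in both genotypes. Of 23 tested, 0 were higher and 2 lower in untreated libraries labelled KO (8.7%, beside 4.84% of all genes), RPS6KA5, which encodes the CREB kinase MSK1, by 0.49 on the log2 scale and the adenylyl cyclase gene ADCY3 by 0.34 (adjusted p = 0.0203 and 0.025). With reads summed per clone, both calls were lost and 0 of 23 were called. After doxorubicin 0 were higher and RPS6KA5 alone was lower, at 25.9 ± 2.55 against 36.7 ± 3.68 normalized CPM (SD, n = 4 each; -0.49, adjusted p = 0.0115), which is 4.35% of the list beside 8.69%. Doxorubicin raised 3 and lowered 3 in the Scr clones (26.1%, beside 12.2%) and raised 4 and lowered 1 in the KO clones (21.7%, beside 19.6%). The list's medians in these 4 comparisons were -0.08, -0.06, -0.01 and -0.02, beside -0.01, 0.01, -0.01 and 0.02 over all genes. PDE4A, a cAMP phosphodiesterase, rose from 3.34 ± 0.805 to 10.4 ± 0.86 in the Scr clones (1.4, adjusted p = 0.000164) and from 4.93 ± 2.09 to 13.3 ± 3.01 in the KO clones (1.33, adjusted p = 0.00017). ADCY6 rose by 0.58 and 0.64 and ADCY5 by 0.62 and 0.56, and PDE4B fell by 0.33 and 0.36 on the log2 scale. In the Scr clones the regulatory subunit genes PRKAR2B and PRKAR2A of protein kinase A also fell, by 0.35 and 0.24, the call of PRKAR2A being lost with any 1 library left out (adjusted p up to 0.11) and that of PRKAR2B with either clone left out. PDE4A and ADCY6 were called with any library or clone left out. ADCY5 in the KO clones was 0.32 without untreated KO11 replicate 2 (adjusted p = 0.286) and 0.28 without KO11 (adjusted p = 0.676), and its call in the Scr clones was lost with either clone left out. Between untreated genotypes the count was 0 without any of KO28, Scr13, Scr16, the untreated libraries of Scr13 or replicate 1 of untreated Scr16, after doxorubicin it was 0 without KO28, KO11 or treated KO11 replicate 1, with RPS6KA5 also lost without Scr16, and in the Scr clones it fell to 2 higher and 0 lower without either clone. In the KO clones it fell to 2 higher and 1 lower without KO11, the 1 lower being another gene than PDE4B, whose calls in both genotypes were lost with either clone left out.

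Genes acting on CRTC proteins were called in shares near or below those of all genes, apart from the Scr clones under doxorubicin. Of 10 tested, the kinases SIK, MARK2 and AMP kinase and the subunits of calcineurin among them, 0 were called in untreated cells by limma, edgeR or DESeq2 (2 at an unadjusted p under 0.05 in limma) and 1 after doxorubicin (10%, beside 8.69% of all genes). This was STK11, which encodes LKB1, the kinase above the SIK kinases, at 68.8 ± 3.66 in KO and 84.2 ± 3.7 normalized CPM in Scr (SD, n = 4 each; log2 fold change -0.29, adjusted p = 0.0294). In the Scr clones doxorubicin raised STK11 by 0.31 (adjusted p = 0.0235) and lowered PPP3R1, the calcineurin regulatory subunit, by 0.27 on the log2 scale (adjusted p = 0.0371), 20% of the list beside 12.2%. These calls were lost with any clone left out, STK11 reaching an adjusted p of 0.316 in both comparisons and PPP3R1 0.385. With a library left out, STK11 was called in 3 of 8 fits between treated genotypes. In the Scr clones it was called in 4 of 8 such fits, and PPP3R1 in 1 of 8. With reads summed per clone, 0 of 10 were called between treated genotypes. In the KO clones, beside 19.6% of all genes called, 0 of 10 were called by any of these tools, with 0 at an unadjusted p under 0.05 in limma, and the interaction for STK11 was -0.28 (adjusted p = 0.529). The list's medians in the 4 comparisons were -0.02, 0.04, 0 and 0.01.

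CREB3L2 and ATF3 were the bZIP relatives called between genotypes. Of 11 bZIP relatives tested, CREB3L2, a membrane-bound factor of secretory stress, was the 1 called in untreated libraries labelled KO, at 94 ± 12.2 against 66 ± 8.99 normalized CPM (SD, n = 4 each; log2 fold change 0.51, adjusted p = 0.00454), and ATF3 the 1 called after doxorubicin, each 9.09% of the list beside 4.84% and 8.69% of all genes. Doxorubicin changed 0 of 11 in the Scr clones, beside 12.2%, and 3 in the KO clones (27.3%, beside 19.6%), where ATF3 rose by 1.02 and JDP2 by 0.55 and CREB5 fell by 0.3, the calls of JDP2 and CREB5 being lost with either clone left out (adjusted p up to 0.413 and 0.313) and holding in 2 and 3 of 8 fits with a library left out. CREB3L2 and ATF3 missed the threshold between genotypes without KO28 (adjusted p = 0.0537 and 0.0625). The medians of the bZIP list were 0, 0.03, 0.02 and 0.01 in the 4 comparisons. Among acetyltransferases and adaptors near CBP and p300, 0 of 10 were called in either comparison of genotypes and 0 of 10 under doxorubicin in the Scr clones. In these 3 comparisons, and for the bZIP relatives in the Scr clones, edgeR and DESeq2 called 0 too, and limma had 0 at an unadjusted p under 0.05. In the KO clones 1 of 11 was (9.09%, beside 19.6%), KAT7, which fell from 125 ± 5.12 to 103 ± 0.774 (-0.27, adjusted p = 0.00971; 0.285 without KO11). The medians of this list were 0.04, -0.1, 0.05 and -0.11.

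Of the lists described here, the mesenchymal or fibroblast markers had the largest share of calls between genotypes. Of these markers 7 of 11 were higher and 1 lower in untreated libraries labelled KO, beside 4.84% of all genes called. The rises were led by LUM at 2.45, COL3A1 at 2.17 and YAP1 at 1.91 on the log2 scale, with TWIST1 at -0.53. The untreated counts were 3 higher and 1 lower without KO28, 4 and 1 in DESeq2, and 3 and 1 without the filter on low values. After doxorubicin 8 of 10 were higher and 1 lower, beside 8.69% of all genes. Here LUM at 3.24, COL3A1 at 2.88 and DCN at 2.45 led the rises, with TWIST1 at -0.64. Of 10 adrenergic markers tested, 2 were higher and 1 lower in untreated libraries labelled KO, beside 4.84% of all genes. GATA3 was 1 of those higher, by 0.32 on the log2 scale. Its call was lost without KO28, Scr13 or Scr16 (adjusted p up to 0.355) and in 5 of 8 fits with a library left out. In the Scr clones doxorubicin raised 2 of 10 adrenergic markers, HAND2 and STMN2, and lowered 1, ISL1, beside 12.2% of all genes called. In the KO clones it raised 1 of 10, HAND2, and lowered 3, CHGA, ISL1 and DBH, beside 19.6%. Of the mesenchymal or fibroblast markers, doxorubicin raised 1 of 8 in the Scr clones, TWIST1. In the KO clones 2 of 11 rose, CD44 and DCN, and 1 fell, COL1A2. With a clone left out, the calls in the Scr clones were all lost, and in the KO clones those of ISL1, CD44 and DCN held each time. HAND2 in the KO clones and TWIST1 in the Scr clones were each called in 1 of 8 fits with a library left out, with adjusted p up to 0.123 and 0.129. The part of these marker differences in the values of the CREB factors and coactivators was not tested.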

How the data were processed

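Poly(A) RNA of 16 libraries was sequenced after directional library preparation. The submitters' processing notes name bcl2fastq, HISAT2 2.1.0, HTSeq, edgeR and GRCh38. The authors deposited a normalized signal per gene, CPM scaled by a factor per library, in 1 table for untreated and 1 for treated cells, beside columns of their own comparisons (fold changes, p-values, q-values and ranks), which were not used. Whole reads were recovered from 100% of values (largest deviation 5.39e-05 reads). The factors, 0.974 to 1.03, lay within 1% of TMM factors computed over all 16 libraries, so levels were compared across tables.

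log2(CPM + 1) was fitted with limma 3.58.1 in R 4.3.3, with genotype as the term on deposited CPM, or clone and treatment on TMM-scaled CPM. Genes needed 1 CPM in 4 libraries. P-values were adjusted by Benjamini-Hochberg over all genes tested, and 0.05 was the threshold. Fold changes are on the log2(CPM + 1) scale, which understates low genes. edgeR 4.0.16 and DESeq2 1.42.0 on recovered reads, other scalings and left-out libraries were alternatives, and the fits were tested on simulated data. Intervals are 95% and limits at 3 reads cover counting error only. Exon lengths and positions are from GENCODE 29. Most named list genes are among the 3 largest rises and falls called per list and comparison. Some were named for another reason, a full CRE in a promoter window, as VGF and DUSP1, or calls with clones left out, as SCG2. Members and lists were chosen with earlier results of these data known. Some adrenergic marker genes are not reported here.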

Additional observations from a re-analysis of the deposited data

How the results depend on the processing

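Of 283 fitted changes of members under other settings with all libraries kept, 281 kept direction and side of the threshold. The exceptions crossed 0: EP300 under doxorubicin in Scr clones was 0 with reads summed per clone, and ATF1 in KO clones was -0.02 with library size alone. No setting with all libraries changed the count of members called. Without the filter on low values, which tests more genes, 368 genes were called between untreated genotypes and 808 under doxorubicin in Scr clones. With no filter the CREB target list had 2 higher and 1 lower between untreated genotypes, 3 and 1 after doxorubicin and 4 and 0 under doxorubicin in Scr clones, and most other lists also had fewer calls in at least 1 comparison. The interaction called 1 gene with a pseudocount of 0.1, 2 without a filter, 9 in edgeR, 58 in DESeq2, 37 with summed reads and 3 without a clone term, and the cause was not tested.

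Over all genes, replicate numbers did not pair the libraries: deviations of equally numbered libraries correlated between -0.1 and 0.12 over 28 pairs of conditions. The 0.12 was for treated KO11 with treated KO28. In both of these, replicate 1 was above replicate 2 for CREBBP, EP300 and the CRTC genes. For ATF1 and CREM replicate 1 was the lower one, while CREB1 differed between the clones. The cause was not tested. With the replicate block 24 genes were called for the interaction, and the other counts were 697, 1365, 2074 and 2947, with no change in members called.

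With 1 library or clone left out, called genes ranged from 362 to 835 between untreated genotypes, 574 to 1342 after doxorubicin, 270 to 1745 for doxorubicin in Scr clones, 999 to 2897 in KO clones and 0 to 18 for the interaction. Members called ranged from 0 to 1 in untreated cells and under doxorubicin in either genotype. Log2 fold changes that crossed 0 were, between untreated genotypes, CREB1 (-0.2 to 0.11), CRTC1 (-0.12 to 0.24), CRTC2 (-0.02 to 0.45) and CRTC3 (-0.13 to 0.05). After doxorubicin they were CREM (-0.06 to 0.4), CRTC2 (-0.11 to 0.05), CRTC3 (-0.1 to 0.03), CREBBP (-0.05 to 0.11) and EP300 (-0.04 to 0.18). Under doxorubicin they were CREM (-0.18 to 0.08), CRTC3 (-0.05 to 0.11) and EP300 (-0.04 to 0.03) in Scr clones, and CREB1 (-0.16 to 0.12), ATF1 (-0.08 to 0.11), CREM (-0.54 to 0.31), CRTC1 (-0.12 to 0.24), CRTC2 (-0.05 to 0.28) and CRTC3 (-0.06 to 0.15) in KO clones.

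CREM, with 127 reads at fewest in a library, had the widest intervals, reaching 1.56-fold between untreated genotypes.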
